A study of Mus musculus with 23 samples.

Results

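Granzymes and other genes of cytotoxic lymphocytes were examined in the colon of BALB/c mice with and without the TNF receptor family member Fn14 (gene Tnfrsf12a), before and after chronic colitis. The set held 9 genes chosen by name, with earlier results of these data known. Among them were the granzyme genes Gzma, Gzmb and Gzmk, the perforin gene Prf1 and the granule membrane gene Nkg7. The others were the receptor gene Klrd1, the death ligand gene Fasl, the integrin gene Itgae and the chemokine gene Ccl5. All 9 were measured, among 18194 genes on the array. Expression was read on 23 arrays in 4 groups: TNBS-treated Fn14 knockout (n = 7), untreated Fn14 knockout (n = 5), TNBS-treated wild type (n = 6) and untreated wild type (n = 5). TNBS (trinitrobenzene sulfonic acid), a hapten that provokes colitis, was given rectally as a 0.2% solution in a mixture of PBS and ethanol over 6 weeks, in doses of 1.0 to 2.0 ul per g, and colons were taken 3 days after the last dose. All mice were of the BALB/c strain. Whether mice without TNBS were given ethanol is not stated, nor how the knockout allele was made. Samples are numbered within groups with no word on whether a number is 1 mouse, so the spread behind each p-value may be technical.

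Cytotoxic T cells and natural killer (NK) cells kill target cells by releasing granules in which perforin opens the way for granzymes, a family of serine proteases. A further route is Fas ligand, which engages the death receptor Fas. In the gut many such cells lie between epithelial cells, where the integrin alpha E, encoded by Itgae and paired with beta 7, holds them to E-cadherin. Granzymes are not restricted to lymphocytes in the mouse, since mast cells can express granzyme B and mucosal mast cells can carry alpha E.

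Values are log2 expression as the authors deposited it. The lowest value of the series, 2.17, is called the floor, and 27.9% of all values stood there, so a difference that reaches the floor is understated. The deleted gene Tnfrsf12a read 3.84 to 4.17 in TNBS-treated and 4.03 to 4.17 in untreated knockout colon, against 6.77 to 8.25 in TNBS-treated and 5.86 to 7.16 in untreated wild-type colon, so every array matched its genotype label. Epithelial markers were high on all arrays, with a mean of the 13 listed colonocyte genes between 12.9 and 13.3. Xist stood at 11.78 to 12.36 and 3 Y-linked genes at no more than 2.18 on every array, so these sex-linked genes set no array apart. Precision depends on how many arrays each group holds and on the spread of each gene. In whole tissue, fewer cells of a type and less RNA per cell cannot be told apart.

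The region before the start site is shown for the 2 granzyme genes that moved most and for Prf1, which moved the other way. These are the 250 bases before the start site used for each gene and the 50 bases from it, from RefSeq on GRCm38.p6. They are written 5′ to 3′ on the gene's strand. For Prf1 that start site is not the outer end of the annotated gene, which begins within the window, at chr10:61297751. They come from chr13:113100932-113101231 (minus strand) for Gzma, chr14:56262285-56262584 (minus strand) for Gzmb and chr10:61297586-61297885 (plus strand) for Prf1. Capitals mark every match, on either strand, to the core TGTGGT of RUNX factors, the core GGTGTGA of T-box factors or the core TGANTCA of AP-1, where N is any base.
Gzma: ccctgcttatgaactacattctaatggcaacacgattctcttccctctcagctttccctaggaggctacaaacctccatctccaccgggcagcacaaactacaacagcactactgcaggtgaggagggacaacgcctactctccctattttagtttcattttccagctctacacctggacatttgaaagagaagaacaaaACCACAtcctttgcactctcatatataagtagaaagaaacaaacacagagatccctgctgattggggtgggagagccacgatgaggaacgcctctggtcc
Gzmb: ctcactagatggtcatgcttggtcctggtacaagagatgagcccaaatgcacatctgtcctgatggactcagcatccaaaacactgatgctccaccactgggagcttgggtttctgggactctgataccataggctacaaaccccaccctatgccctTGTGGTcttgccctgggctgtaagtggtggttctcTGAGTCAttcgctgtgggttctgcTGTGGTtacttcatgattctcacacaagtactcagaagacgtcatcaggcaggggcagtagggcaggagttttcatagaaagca
Prf1: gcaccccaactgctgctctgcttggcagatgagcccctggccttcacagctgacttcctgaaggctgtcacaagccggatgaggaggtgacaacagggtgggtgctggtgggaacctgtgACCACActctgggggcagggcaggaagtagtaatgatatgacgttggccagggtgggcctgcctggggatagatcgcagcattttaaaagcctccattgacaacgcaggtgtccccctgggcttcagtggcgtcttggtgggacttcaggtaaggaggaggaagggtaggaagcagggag
Gzmb held 2 RUNX cores, at -93 to -88 and at -34 to -29 from the start site, and an AP-1 core between them at -58 to -52. Gzma held 1 RUNX core at -50 to -45, and Prf1 held 1 at -130 to -125, both on the opposite strand. Of 32851 mouse promoter windows of the same length, 16.8% held a RUNX core, 3.98% the T-box core and 7.81% the AP-1 core. Among the other members, windows were given for Nkg7, with 1 RUNX core and 1 T-box core, for Gzmk, with 1 T-box core, and for Fasl, with none of the 3. No marked matches overlapped. Such a match is a description of the letters in this window only.

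Across the 4 group comparisons, genes of this set differed both with TNBS and between genotypes. The tests are limma fits over all genes with 1 mean per group, Benjamini-Hochberg adjusted over 18194 genes, with a threshold of 0.05 on the adjusted p. With TNBS, 5 of the 9 genes rose in the knockout (Gzma, Gzmb, Nkg7, Itgae and Ccl5), where 4.08% of all genes rose, 4.47% fell and 8.55% were called in either direction. With TNBS in wild type 6 rose (those 5 and Klrd1), where 10.2% of all genes rose, and 1 fell (Prf1), where 6.27% fell and 16.5% were called in either direction. Between genotypes under TNBS, 3 were lower in the knockout (Gzma, Gzmb and Itgae), where 6.72% of all genes were, and 1 was higher (Prf1), where 3.73% were and 10.5% were called in all. Without TNBS, 4 were lower in the knockout (Gzma, Gzmb, Itgae and Ccl5), where 1.91% of all genes were, and none was higher, where 2.92% were and 4.83% were called in all. Groups that did not overlap were counted as well. With TNBS in the knockout 5 genes lay wholly higher and 0 wholly lower, against 1.97% and 1.9% of all genes. With TNBS in wild type 5 lay wholly higher and 1 wholly lower, against 6.99% and 3.15%. Under TNBS the knockout lay wholly higher in 1 gene and wholly lower in 3, against 0.956% and 2.68%, and without TNBS in 0 and 4, against 3.39% and 2.18%. The median difference of the 9 genes was 0.92 with TNBS in the knockout, 1.02 with TNBS in wild type, -0.39 between genotypes under TNBS and -0.52 between genotypes without TNBS, while that of all genes was 0 in each. These comparisons share groups of arrays and are not independent of each other. Because the 9 genes were chosen with earlier results of these data known, their counts and medians beside all genes are descriptions, not a test of the set.

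**Figure D1:**
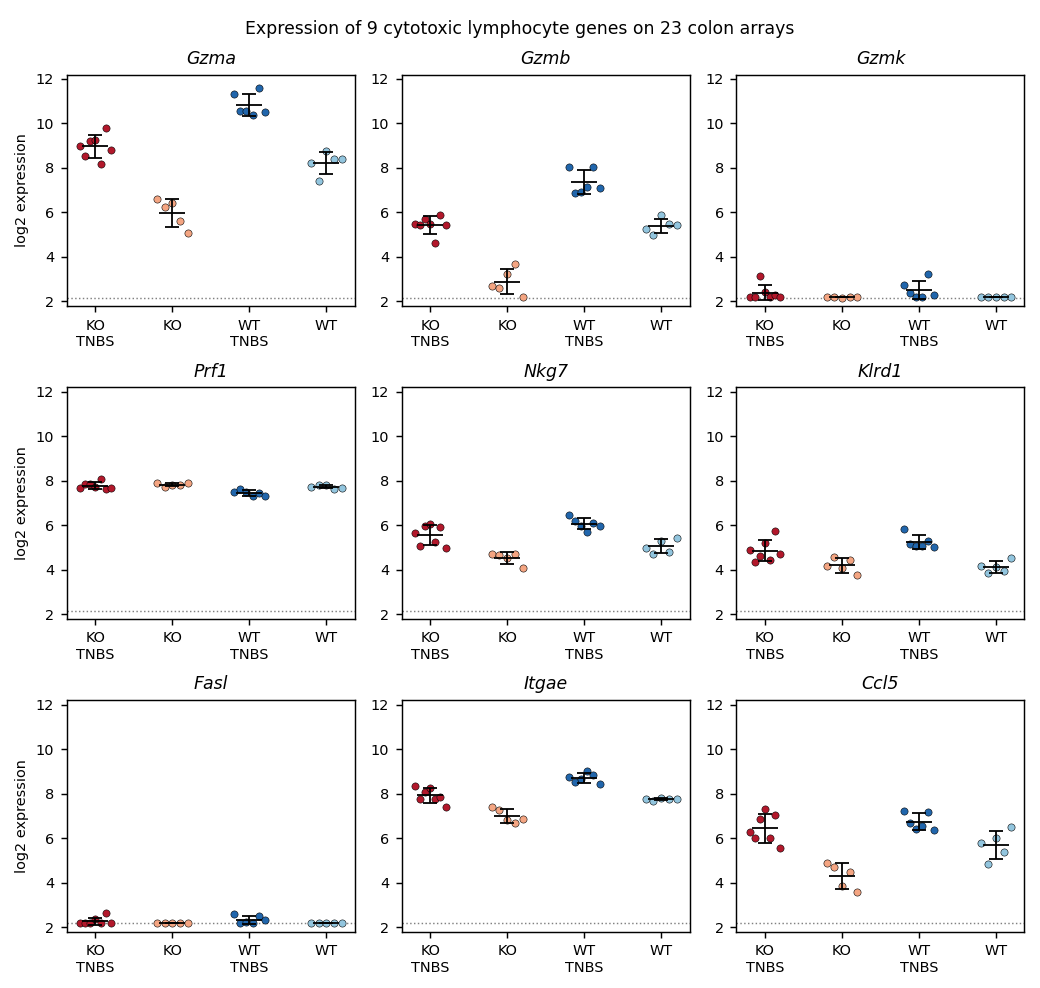
Log2 expression (vertical axis) of the 9 genes on each array, by group (horizontal axis: knockout and wild type, each with TNBS left of untreated); points are arrays, bars the mean and SD (n = 7, 5, 6 and 5), and the dotted line is the floor at 2.17. Gzma and Gzmb stand apart between the genotypes with and without TNBS, Prf1 is nearly level, and Gzmk and Fasl lie near the floor.

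Gzma, which encodes granzyme A, a tryptase, separated all of the compared groups. It ranged from 8.17 over a median of 9.004 to 9.82 in TNBS-treated knockout colon. It read 5.10, 5.61, 6.23, 6.44 and 6.59 in untreated knockout colon. In wild type it ranged from 10.39 over a median of 10.56 to 11.59 with TNBS and read 7.43, 8.24, 8.38, 8.40 and 8.76 without. The ranges of the compared groups did not overlap, and only the TNBS-treated knockout and the untreated wild-type arrays reached into each other's range. Gzma rose with TNBS by 2.98 ± 0.31 (SE) in the knockout (7.87-fold, adjusted p = 7.67e-06) and by 2.58 ± 0.32 in wild type (5.97-fold, adjusted p = 1.98e-05). It was lower in the knockout than in wild type, at -1.85 ± 0.30 under TNBS (3.604-fold, adjusted p = 0.000545) and at -2.25 ± 0.34 without TNBS (4.75-fold, adjusted p = 0.000943). The untreated genotype difference was the 20th lowest of 18194.

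Gzmb encodes granzyme B, which cleaves after aspartate and activates caspases. It ranged from 4.64 over a median of 5.46 to 5.90 in TNBS-treated knockout colon. It read 2.22, 2.62, 2.70, 3.22 and 3.67 in untreated knockout colon. In wild type it ranged from 6.89 over a median of 7.12 to 8.05 with TNBS and read 5.01, 5.28, 5.45, 5.46 and 5.87 without. TNBS-treated knockout arrays thus lay in the range of untreated wild-type arrays or below it, except 1 at 5.90. Gzmb rose with TNBS by 2.55 ± 0.27 in the knockout (5.84-fold, adjusted p = 8.14e-06) and by 1.95 ± 0.28 in wild type (3.85-fold, adjusted p = 7.51e-05). It was lower in the knockout, at -1.93 ± 0.25 under TNBS (3.80-fold, adjusted p = 1e-04) and at -2.53 ± 0.29 without TNBS (5.77-fold, adjusted p = 6.55e-05). Untreated knockout arrays lay near the floor, so the size of both folds taken against them is uncertain, and with values below log2 5 set to 5 the call was lost there (-0.41, adjusted p = 0.393) and for TNBS in the knockout (0.48, adjusted p = 0.181).

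Gzmk, which encodes granzyme K and lies next to Gzma with no protein-coding gene between them, was near the floor. It ranged from 2.21 to 3.13 in TNBS-treated and from 2.17 to 2.21 in untreated knockout colon, against 2.21 to 3.22 in TNBS-treated and 2.20 to 2.21 in untreated wild-type colon. No untreated array exceeded 2.21, and no comparison passed (adjusted p = 0.258 to 1). A further 7 granzyme genes (Gzmc to Gzmg, Gzmm and Gzmn) gave no call in any comparison. Of these, 5 stood at the floor on every array, so the array gave no level for them.

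Prf1 encodes perforin, the pore-forming protein of the granules. Its main probe set ranged from 7.66 over a median of 7.72 to 8.09 in TNBS-treated knockout colon and read 7.72, 7.80, 7.82, 7.90 and 7.90 in untreated knockout colon. Wild-type arrays ranged from 7.30 over a median of 7.48 to 7.63 with TNBS and read 7.65, 7.70, 7.72, 7.80 and 7.83 without. The TNBS-treated wild-type arrays lay below all others. Prf1 fell with TNBS in wild type by 0.29 ± 0.07 (adjusted p = 0.00835) and was higher in the knockout under TNBS, by 0.34 ± 0.07 (adjusted p = 0.0025). The difference with TNBS in the knockout was -0.04 ± 0.07 (95% confidence interval -0.18 to 0.11, adjusted p = 0.91), and that between untreated genotypes was 0.09 ± 0.07 (adjusted p = 0.61). A second Prf1 probe set stood at 2.17 on every array, so the probe sets of this gene disagree and the small differences rest on the brighter one. The call for TNBS in wild type was lost with the mean of the squamous markers as a covariate (-0.21, adjusted p = 0.184) and with that of the T cell markers (-0.26, adjusted p = 0.27), alternatives chosen after seeing the data.

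Nkg7 encodes a membrane protein of cytotoxic granules. It ranged from 4.98 over a median of 5.67 to 6.07 in TNBS-treated knockout colon and read 4.08, 4.53, 4.69, 4.69 and 4.70 in untreated knockout colon. In wild type it ranged from 5.72 over a median of 6.05 to 6.46 with TNBS and read 4.715, 4.80, 5.003, 5.30 and 5.45 without. Every TNBS-treated array lay above every untreated array of its genotype. Nkg7 rose by 1.02 ± 0.20 in both genotypes (adjusted p = 0.00365 in the knockout and 0.00182 in wild type), and the difference of these effects was 0.01 ± 0.28 (95% confidence interval -0.59 to 0.60). The knockout call was lost with values below log2 5 set to 5 (0.56, adjusted p = 0.0558), and both calls with the T cell covariate (0.40 in the knockout, adjusted p = 0.545, and 0.36 in wild type, adjusted p = 0.537). Knockout minus wild type was -0.51 ± 0.19 with TNBS (adjusted p = 0.0931) and -0.52 ± 0.21 without (adjusted p = 0.181), so neither passed, although the untreated groups did not overlap.

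Klrd1 encodes CD94, which pairs with NKG2 receptors on NK cells and some T cells. It ranged from 4.37 over a median of 4.73 to 5.73 in TNBS-treated knockout colon and read 3.75, 4.08, 4.15, 4.44 and 4.59 in untreated knockout colon. In wild type it ranged from 5.02 over a median of 5.13 to 5.82 with TNBS and read 3.86, 3.93, 4.11, 4.18 and 4.55 without. The wild-type groups did not overlap, whereas the knockout groups did. Klrd1 rose with TNBS in wild type by 1.12 ± 0.22 (2.17-fold, adjusted p = 0.00137), a call lost with values below log2 5 set to 5 (0.24, adjusted p = 0.281) and with the T cell covariate (0.73, adjusted p = 0.272). The difference in the knockout was 0.66 ± 0.21 and did not pass (adjusted p = 0.058). It passed when TNBS-treated knockout replicate 2 (adjusted p = 0.035) or 5 (0.0475), untreated knockout replicate 2 (0.0478) or TNBS-treated wild-type replicate 1 (0.0476) was left out, and with array weights (0.0402). The genotypes differed by -0.39 ± 0.20 with TNBS and by 0.08 ± 0.23 without (adjusted p = 0.262 and 1). Partner and related receptor genes were measured too: Klrc1, for NKG2A, differed by 0.43 with TNBS in the knockout and by 0.51 in wild type, and neither passed (adjusted p = 0.175 and 0.0825), and it was lower in the knockout under TNBS (-0.63 ± 0.18, adjusted p = 0.0277).

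Fasl, for Fas ligand, stood at the floor on 5 of 7 TNBS-treated and 5 of 5 untreated knockout arrays, and on 1 of 6 TNBS-treated and 5 of 5 untreated wild-type arrays. Its highest values were 2.62 in TNBS-treated knockout and 2.60 in TNBS-treated wild-type colon. On this probe set, readings off the floor came only from TNBS-treated arrays, and no comparison passed (adjusted p = 0.19 to 1). A second Fasl probe set read at most 2.26 and was slightly off the floor on 3 of 5 untreated wild-type arrays.

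Itgae varied least in untreated wild type (SD 0.05) and more in the knockout (SD 0.32 with TNBS and 0.30 without). It ranged from 7.39 over a median of 7.87 to 8.33 in TNBS-treated knockout colon and read 6.70, 6.82, 6.86, 7.26 and 7.38 in untreated knockout colon. Wild-type arrays ranged from 8.44 over a median of 8.72 to 9.03 with TNBS and read 7.66, 7.74, 7.77, 7.78 and 7.79 without. The compared groups did not overlap, although the knockout groups nearly met, at 7.39 with TNBS and 7.38 without. Itgae rose with TNBS by 0.92 ± 0.15 in the knockout (adjusted p = 0.000882) and by 0.97 ± 0.15 in wild type (adjusted p = 0.000222). It was lower in the knockout, at -0.79 ± 0.14 under TNBS (1.73-fold, adjusted p = 0.00125) and at -0.75 ± 0.16 without TNBS (1.68-fold, adjusted p = 0.0112). A second Itgae probe set, tested over all probe sets, moved the same way: by 0.69 and 1.07 with TNBS in knockout and wild type (adjusted p = 0.0155 and 0.000297) and by -0.89 between genotypes under TNBS (adjusted p = 0.00137). Its untreated genotype difference of -0.50 did not pass (adjusted p = 0.124). On this second probe set the knockout groups overlapped, at 6.09 to 7.03 with TNBS and 5.38 to 6.22 without.

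Ccl5 encodes RANTES, a chemokine that draws T cells, monocytes and eosinophils and is itself stored by cytotoxic T cells. It ranged from 5.56 over a median of 6.30 to 7.33 in TNBS-treated knockout colon and read 3.56, 3.86, 4.50, 4.71 and 4.90 in untreated knockout colon. Wild-type arrays ranged from 6.38 over a median of 6.61 to 7.21 with TNBS and read 4.82, 5.4001, 5.77, 6.01 and 6.49 without. The TNBS-treated and untreated groups were apart in the knockout and overlapped in wild type. Ccl5 rose by 2.13 ± 0.33 in the knockout (4.39-fold, adjusted p = 0.000582) and by 1.04 ± 0.34 in wild type (2.05-fold, adjusted p = 0.0412). Without TNBS it was lower in the knockout, at -1.39 ± 0.35 (2.62-fold, adjusted p = 0.0282), and under TNBS it differed by -0.29 ± 0.31 (95% confidence interval -0.94 to 0.36, adjusted p = 0.673). The wild-type TNBS call was lost without untreated wild-type replicate 1, 2 or 4 or TNBS-treated wild-type replicate 1, 2, 4 or 5 (adjusted p = 0.0515 to 0.128). The untreated genotype call was lost without untreated knockout replicate 3, 4 or 5 or untreated wild-type replicate 1, 3 or 5 (adjusted p = 0.0521 to 0.0728), with only those groups fitted (0.1) and with values below log2 5 set to 5 (-0.73, adjusted p = 0.209). The squamous and skeletal muscle covariates also ended the wild-type TNBS call (0.81, adjusted p = 0.324, and 1.10, adjusted p = 0.0517).

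**Figure D2:**
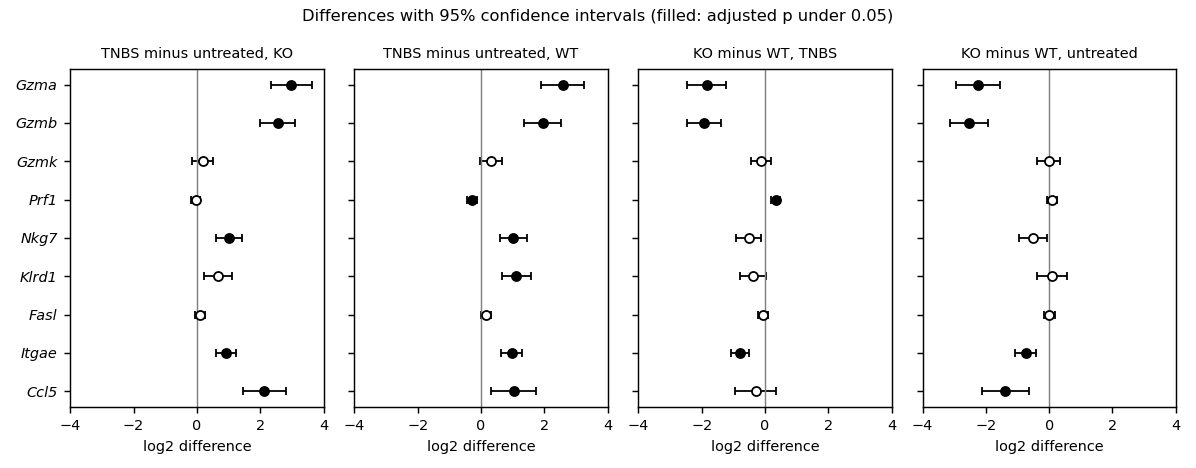
Log2 differences (horizontal axis) of the 9 genes (rows) in 4 comparisons, with 95% confidence intervals from limma; filled points passed at an adjusted p under 0.05. Gzma and Gzmb lie at 1.95 to 2.98 with TNBS and at -2.53 to -1.85 between genotypes, whereas Prf1 stays within 0.34 of 0.

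The TNBS effect was then compared between genotypes for each gene, as the effect in the knockout minus that in wild type. By limma 0 of the 9 genes passed, where 2% of all genes did (0.621% with a larger and 1.37% with a smaller value in the knockout), and 2 had an unadjusted p under 0.05. These were Ccl5 (1.10 ± 0.47, unadjusted p = 0.0308, adjusted p = 0.251) and Prf1 (0.25 ± 0.10, unadjusted p = 0.0205, adjusted p = 0.206). For Gzma the difference was 0.40 (95% confidence interval -0.54 to 1.33) and for Gzmb 0.60 (-0.20 to 1.41). A different size of the granzyme response in the knockout was therefore not detected, and differences of up to these bounds remain within the intervals. With values below log2 5 set to 5, the Gzmb difference turned to -1.46 and passed (adjusted p = 0.0143), since that setting removes most of its rise in the knockout.

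Genes that fill, process and empty cytotoxic granules were read as a list of 12. The counts of this list and of those below are descriptions, to be read beside the shares of all genes. With TNBS 4.08% of all genes rose and 4.47% fell in the knockout, and 10.2% rose and 6.27% fell in wild type. Lower in the knockout were 6.72% under TNBS and 1.91% without. Of the 12 genes, 4 rose with TNBS, 1 fell and 7 did not pass in the knockout. In wild type 7 rose and 5 did not pass. Srgn, for the granule proteoglycan serglycin, rose by 1.03 ± 0.17 in the knockout and by 1.30 ± 0.18 in wild type (adjusted p = 0.00106 and 4.65e-05). Cst7, for the protease inhibitor cystatin F, rose by 1.17 ± 0.30 in the knockout and 1.95 ± 0.31 in wild type. Ctsw, a cathepsin gene of cytotoxic lymphocytes, rose by 0.72 ± 0.19 in the knockout and 1.02 ± 0.20 in wild type. Ctsc, for cathepsin C, which activates granzymes by trimming their N-terminus, rose by 0.22 ± 0.06 in the knockout and 0.36 ± 0.07 in wild type. The gene that fell in the knockout was Rab27a, for a GTPase that docks granules at the membrane (-0.95 ± 0.26, adjusted p = 0.026). It differed by 0.67 ± 0.26 in wild type (adjusted p = 0.0972), and the difference of its TNBS effects passed (-1.62 ± 0.37, adjusted p = 0.0257). Under TNBS 6 of the 12 were lower in the knockout, among them Ctsc (-0.43 ± 0.06, adjusted p = 0.000209) and Rab27a (-1.99 ± 0.24, adjusted p = 4.84e-05), and without TNBS only Ctsc was (-0.29 ± 0.07, adjusted p = 0.0209). The median of the list was 0.04 with TNBS in the knockout, 0.39 with TNBS in wild type, -0.32 between genotypes under TNBS and -0.16 without, against 0 over all genes. Which cells carried these transcripts was not tested. Markers of mast cells (10 of 12) and macrophages (10 of 11) also rose with TNBS in wild type. In the knockout 9 of 12 mast cell markers rose and 1 fell, and 8 of 11 macrophage markers rose.

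Of 5 serpin genes, Serpinb6b was the only one that rose with TNBS, by 0.57 ± 0.12 in the knockout and 1.29 ± 0.13 in wild type (adjusted p = 0.00655 and 1.02e-06). Serpinb9, an inhibitor of granzyme B, differed by 0.20 in the knockout and 0.39 in wild type and did not pass (adjusted p = 0.404 and 0.0507). Under TNBS both were lower in the knockout, Serpinb6b by -0.98 ± 0.12 (adjusted p = 3.73e-05) and Serpinb9 by -0.46 ± 0.12 (adjusted p = 0.0199). Among 7 measured genes of the Fas pathway and granzyme B targets, Casp8 fell with TNBS in the knockout by 0.31 ± 0.07 (adjusted p = 0.00621), and Bid, whose product granzyme B cleaves, rose in wild type by 0.48 ± 0.10 (adjusted p = 0.00174). Both were lower in the knockout under TNBS, at -0.28 ± 0.06 and -0.47 ± 0.09. Tnfsf10, for the death ligand TRAIL, was lower in untreated knockout colon, at -1.18 ± 0.27 (adjusted p = 0.0164), the only call of this list without TNBS.

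Receptors and adaptors of NK cells and cytotoxic T cells rose in 3 of 13 cases with TNBS in the knockout and in 6 of 13 in wild type. The others did not pass, and 4.08% and 10.2% of all genes rose. Cd244a, for the receptor 2B4, rose by 1.12 ± 0.19 in the knockout and 1.70 ± 0.20 in wild type, and Slamf7 by 0.97 ± 0.23 in the knockout and 0.89 ± 0.23 in wild type. Klrg1 differed by 0.07 ± 0.21 in the knockout and rose by 1.09 ± 0.21 in wild type (adjusted p = 1 and 0.00149), and it was lower in the knockout under TNBS (-1.23 ± 0.20, adjusted p = 0.000554). Il2rb, the IL-2 and IL-15 receptor beta chain, differed by 0.09 ± 0.09 in the knockout (adjusted p = 0.611) and rose by 0.60 ± 0.09 in wild type (adjusted p = 0.000104), and the difference of its TNBS effects passed (-0.51 ± 0.12, adjusted p = 0.0373). Under TNBS 4 of 13 were lower in the knockout, where 6.72% of all genes were, and without TNBS none was called. The group means of Ncr1 (NKp46), a defining NK receptor that rose in wild type by 0.08, did not exceed 2.26, those of Klrk1 (NKG2D) 2.19 and those of Klre1 2.20, all near the floor. In the knockout Il2rb averaged 2.30 with TNBS and 2.20 without, and Klrg1 2.45 and 2.38, also near the floor. Untreated wild type averaged 2.245 for Il2rb and 2.59 for Klrg1. The size of their differences is therefore uncertain. The list's median was 0.07 with TNBS in the knockout, 0.08 in wild type, -0.07 between genotypes with TNBS and -0.02 without.

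Of 14 measured regulators of cytotoxic lymphocytes, 1 rose with TNBS in the knockout and 3 in wild type. The shares of all genes that rose were 4.08% and 10.2%. Under TNBS 2 were lower in the knockout, where 6.72% of all genes were, and without TNBS none was called. On a list this short, such counts are no result about the list. Prdm1, for Blimp-1, rose by 0.72 ± 0.13 in the knockout and 1.01 ± 0.13 in wild type. It was the regulator called in the knockout and is also on the list of plasma cell markers. Of those, 5 of 7 rose in the knockout and 4 of 7 in wild type. Which cells carried the Prdm1 transcript was not tested. Runx3, for a RUNX factor of CD8 T cells, differed by 0.66 ± 0.26 in the knockout (adjusted p = 0.136) and rose by 1.47 ± 0.27 in wild type (adjusted p = 0.000928). It was lower in the knockout under TNBS (-1.09 ± 0.25, adjusted p = 0.00816), where its mean was 4.945 against 6.03 in wild type. Il18rap, a chain of the IL-18 receptor, differed by 0.16 ± 0.16 in the knockout and rose by 0.63 ± 0.16 in wild type (adjusted p = 0.657 and 0.0104). Its means lay near the floor in the knockout (2.47 with TNBS, 2.31 without) and in untreated wild type (2.40). The group means of Eomes and Ifng did not exceed 2.28, so the array gave almost no level for them, and Tbx21 did not exceed 2.37. Il15, for the cytokine that sustains such cells, differed by -0.42 with TNBS in the knockout and -0.43 in wild type and did not pass.

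Around Itgae, 5 of 13 genes of lymphocyte homing and retention in the epithelium rose with TNBS in the knockout, and 6 rose and 1 fell in wild type. Among all genes 4.08% rose in the knockout, and 10.2% rose and 6.27% fell in wild type. Itgb7, the partner chain of alpha E, rose by 1.31 ± 0.28 in the knockout and 1.25 ± 0.29 in wild type (adjusted p = 0.0072 and 0.00565). Cd69, a marker of activation and tissue residence, rose by 1.05 ± 0.24 in the knockout and 1.28 ± 0.25 in wild type. Itga4 rose by 0.56 ± 0.17 in the knockout and 0.90 ± 0.17 in wild type, and Cxcl16, for the ligand of the chemokine receptor CXCR6, by 0.63 ± 0.12 in the knockout and 0.88 ± 0.13 in wild type. Ccl25, for a gut homing chemokine, was the gene that fell in wild type. The ligand gene Cdh1, for E-cadherin, stood at group means of 12.9 to 13.0 and gave no call. Itgb7 was not called between genotypes (-0.65 ± 0.27 with TNBS, adjusted p = 0.144, and -0.70 ± 0.31 without, adjusted p = 0.207), and Cd69 was lower in the knockout under TNBS (-0.855 ± 0.23, adjusted p = 0.0221). In all 5 of the 13 were lower in the knockout under TNBS and 2 without (Itgb1 and Tgfbr1), against 6.72% and 1.91% of all genes. The list's median was 0.20 with TNBS in the knockout, 0.30 in wild type, -0.23 between genotypes with TNBS and -0.12 without.

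Around Ccl5, 4 of 9 receptors and lymphocyte attractants rose with TNBS in the knockout and 5 of 9 in wild type. Among all genes 4.08% and 10.2% rose. Ccr1, a receptor of Ccl5, rose by 0.71 ± 0.22 in the knockout and 1.62 ± 0.22 in wild type, and was lower in the knockout under TNBS (-1.31 ± 0.20, adjusted p = 0.000447). Cxcl9, induced by interferon gamma, rose by 2.55 ± 0.34 in the knockout and 1.96 ± 0.35 in wild type. It was lower in the knockout both under TNBS (-1.17 ± 0.32, adjusted p = 0.0241) and without it (-1.75 ± 0.36, adjusted p = 0.00957), the only gene of this list called in untreated colon. Cxcl10 rose by 2.05 ± 0.28 in the knockout and 2.01 ± 0.29 in wild type, and Cxcl11 differed by 1.10 ± 0.45 in the knockout (adjusted p = 0.143) and rose by 2.05 ± 0.47 in wild type (adjusted p = 0.00447). The list's median was 0.72 with TNBS in the knockout, 0.83 in wild type, -0.48 between genotypes with TNBS and -0.36 without.

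Gzmb lies at one end of the mouse chymase locus, which also holds mast cell protease genes. From Cma1 to Gzmb the annotation listed 15 protein-coding genes, of which 13 were measured. With TNBS 5 of them rose in each genotype. Cma1, Mcpt1, Mcpt2 and Mcpt4, at the mast cell end, rose by 2.81, 9.33, 9.05 and 3.33 in the knockout and by 4.32, 9.24, 9.36 and 4.96 in wild type. The fifth was Gzmb, and between it and Mcpt4 no gene passed. Of the genes between them, 5 (Gzmd, Gzme, Gzmf, Gzmg and Gzmn) stood at the floor on every array, so the array gave no level for them. Under TNBS 3 genes of the locus were lower in the knockout: Gzmb, Mcpt1 (-0.97 ± 0.28, adjusted p = 0.0341) and Mcpt4 (-1.71 ± 0.23, adjusted p = 0.000124). In untreated colon Gzmb was the only gene of the locus called lower in the knockout. Mcpt4 differed there by -0.08 ± 0.26 (adjusted p = 1) and Mcpt1, the nearest to a call, by -1.06 ± 0.32 (adjusted p = 0.064).

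Markers of cells that could carry these transcripts were read beside them. The mean of 10 T cell markers was 4.65 to 5.43 in TNBS-treated and 4.27 to 4.84 in untreated knockout colon, against 5.18 to 5.50 in TNBS-treated and 4.62 to 4.90 in untreated wild-type colon. With TNBS 5 of the 10 rose in the knockout and 6 in wild type, Cd3d by 1.38 ± 0.23 in the knockout and 1.16 ± 0.23 in wild type, Cd3g by 1.30 ± 0.26 in the knockout and 1.22 ± 0.26 in wild type, and Thy1 by 0.36 ± 0.10 in the knockout and 0.57 ± 0.11 in wild type. Cd8a rose by 1.67 ± 0.27 in the knockout and 0.99 ± 0.28 in wild type, while Cd8b1 was near the floor. Between genotypes 2 of the 10 T cell markers were lower in the knockout under TNBS and none without, where Cd3e differed by -0.41 ± 0.17 (adjusted p = 0.168). The mean of 12 mast cell markers was 6.11 to 7.11 in TNBS-treated and 3.23 to 3.53 in untreated knockout colon, against 7.27 to 7.99 in TNBS-treated and 3.27 to 3.69 in untreated wild-type colon. In untreated colon Cpa3, a defining mast cell gene, averaged 2.20 in the knockout and 2.58 in wild type, and Fcer1a 2.21 in the knockout and 2.17 in wild type. These genes lay near the floor, whereas the mean of the list stood above it, so they do not describe all 12 markers. No mast cell marker was called between untreated genotypes (median difference -0.07), where Mcpt1 differed by -1.06 ± 0.32 (adjusted p = 0.064). The mean of 8 skeletal muscle markers was 4.96 to 8.05 in TNBS-treated and 5.51 to 7.90 in untreated knockout colon, against 3.24 to 6.90 in TNBS-treated and 2.99 to 4.85 in untreated wild-type colon, so it set the untreated genotypes apart. The part of these cells in the differences of the 9 genes was not tested.

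With the mean of the T cell markers as a covariate, chosen after seeing the data, the genotype differences of Gzma were -1.51 ± 0.33 under TNBS (adjusted p = 0.0147) and -1.95 ± 0.35 without (adjusted p = 0.00785). Those of Gzmb were -1.84 ± 0.31 (adjusted p = 0.00263) and -2.45 ± 0.33 (adjusted p = 0.000904), and those of Itgae -0.51 ± 0.12 (adjusted p = 0.0203) and -0.49 ± 0.12 (adjusted p = 0.0434). All of these were still called. The untreated difference of Ccl5 became -0.83 ± 0.27 and was not called (adjusted p = 0.122). With the same covariate, Gzma and Gzmb were the genes called for TNBS in both genotypes. Gzma rose by 2.38 ± 0.42 in the knockout and 1.94 ± 0.44 in wild type (adjusted p = 0.0125 and 0.0285), and Gzmb by 2.39 ± 0.40 in the knockout and 1.78 ± 0.42 in wild type (adjusted p = 0.00634 and 0.0328). Itgae differed by 0.42 in the knockout and 0.43 in wild type (adjusted p = 0.276 and 0.2), and Ccl5 by 1.01 in the knockout and -0.16 in wild type (adjusted p = 0.237 and 0.984), and neither was called. With the mean of the skeletal muscle markers as a covariate, Gzma and Gzmb differed between untreated genotypes by -2.14 ± 0.45 and -2.58 ± 0.39 (adjusted p = 0.0411 and 0.00595), and both were called. Itgae and Ccl5 differed by -0.77 ± 0.22 and -1.23 ± 0.48 and were not called (adjusted p = 0.127 and 0.286), with differences close to those without the covariate and larger SEs. How many of all genes kept their call with either covariate was not counted. Some of the genes averaged in the T cell covariate lay near the floor, and no mast cell covariate was fitted. Whether cell numbers account for these differences was not tested.

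**Figure D3:**
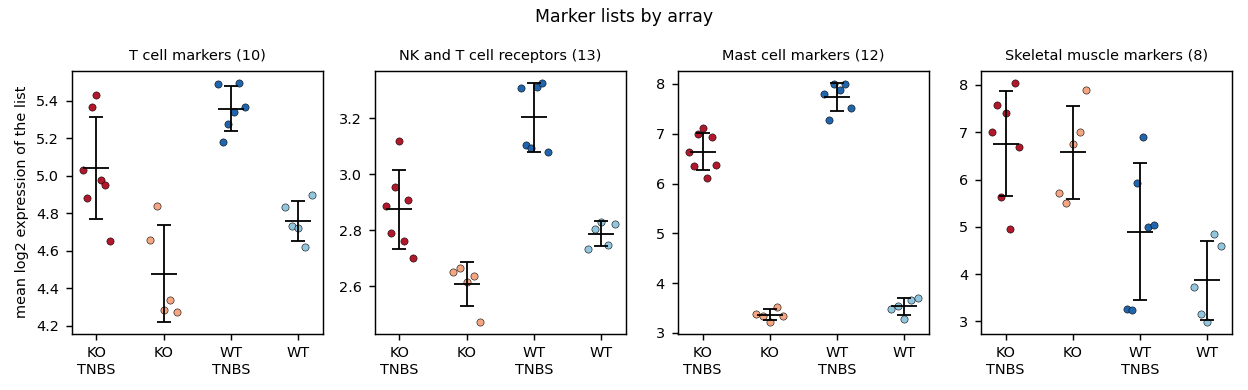
Mean log2 expression (vertical axis, a scale of its own in each panel) of 4 marker lists (T cells, NK and T cell receptors, mast cells, skeletal muscle) on each array by group, with TNBS left of untreated in knockout and then in wild type; points are arrays and bars the mean and SD. Mast cell markers are higher on every TNBS-treated array (6.11 to 7.99) than on any untreated array (3.23 to 3.69), and skeletal muscle markers are higher in untreated knockout (5.51 to 7.90) than in untreated wild-type arrays (2.99 to 4.85).

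Markers of other cell types were counted as well, with rises in knockout and wild type under TNBS, then falls in the knockout relative to wild type, TNBS-treated and then untreated. In the same order, the shares of all genes were 4.08% and 10.2%, then 6.72% and 1.91%. Macrophage markers (11 measured) gave 8 and 10 rises, then 9 and 0 falls. Dendritic cell markers (8) gave 1 and 4 rises, then 4 and 1 falls. B cell markers (6) gave 2 and 4 rises and no genotype call, and plasma cell markers (7) gave 5 and 4 rises, then 0 and 2 falls. Neutrophil markers (8) gave 2 and 2 rises and eosinophil markers (6) 0 and 2, then 0 and 0 falls for neutrophils and 2 and 0 for eosinophils. Squamous markers (10) gave 3 and 5 rises and no genotype call, and of 6 smooth muscle markers 1 rose in wild type. Of 13 colonocyte markers 4 fell with TNBS in the knockout, and 1 rose and 1 fell in wild type. In the knockout 2 skeletal muscle and 2 colonocyte markers were higher than in wild type without TNBS, and 1 colonocyte marker was lower with TNBS. Mast cell markers (12) gave 9 and 10 rises and 1 fall in the knockout with TNBS, then 8 and 0 falls.

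Within groups the 9 genes varied together to unequal degrees. Each array's deviation from its group mean was correlated over the 23 arrays, as a description of 36 pairs that share the same arrays. Nkg7 and Ccl5 followed each other most closely (Pearson r = 0.90, Spearman rho = 0.89, and r = 0.89 without the 2 arrays farthest from the median of Nkg7). Gzma correlated with Ccl5 (r = 0.73, rho = 0.71), Gzmb (0.69, 0.66), Nkg7 (0.68, 0.70) and Klrd1 (0.65, 0.69). Itgae and Gzmb, both lower in the knockout, hardly covaried within groups (r = 0.04, rho = 0.16). Prf1 was negative with every member except Gzmk (r = 0.13), reaching -0.42 with Klrd1. Without the 2 arrays farthest from the median of Prf1, r was -0.36 with Klrd1. It was only -0.002 with Itgae, -0.02 with Nkg7, -0.05 with Fasl and -0.07 with Ccl5 then. Without the 2 arrays farthest from the other gene's median, it was -0.255 with Gzma and -0.16 with Gzmb. Gzmk and Fasl lay near the floor, so their correlations rest on few arrays.

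**Figure D4:**
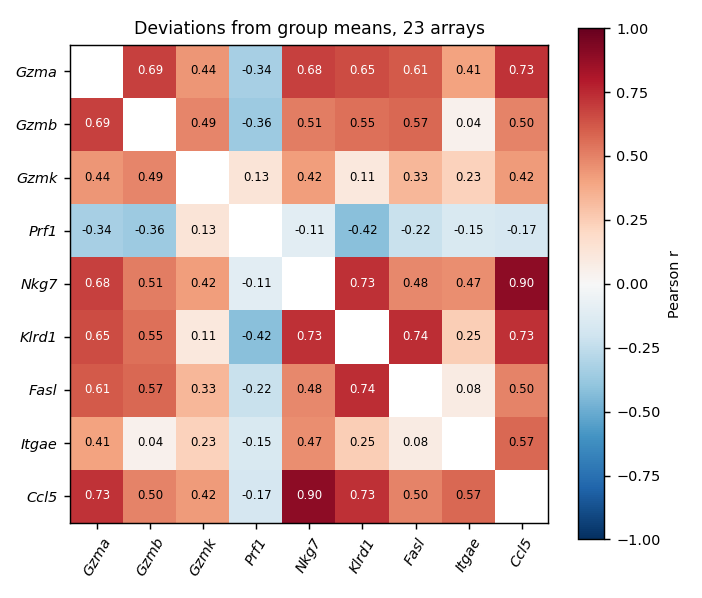
Pearson r (colour and printed value) between the 9 genes (both axes) of each array's deviation from its group mean, over 23 arrays. Nkg7 and Ccl5 stand at 0.90, Gzma and Gzmb at 0.69, and Prf1 is negative with all genes except Gzmk, from -0.11 with Nkg7 to -0.42 with Klrd1.

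Among 9804 other genes with a mean of at least log2 6, those whose deviations were most like those of Ccl5 were Cd69 (Pearson r = 0.83, Spearman rho = 0.85), Cd3g, a chain of the T cell receptor complex (0.81, 0.83), Gins1 (0.81, 0.77), Ctsw (0.79, 0.74) and Icam1 (0.75, 0.73). Those most like Gzmb were Cdk2 (0.80, 0.81), Xrn2 (0.78, 0.74), Ncapg2 (0.78, 0.77), Bloc1s4 (0.74, 0.74) and Snx10 (0.74, 0.79). Those most like Gzma, among 9803, were Pole2 (0.74, 0.73), Tceal8 (0.73, 0.76), Cd7, a T and NK cell surface marker (0.73, 0.67), Sdf2l1 (0.73, 0.72) and Pbdc1 (0.73, 0.72). All 15 values of r were positive and at least 0.61 without the 2 arrays farthest from the member's median. They were picked as the highest of many, over 23 arrays, and carry no test.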

How the data were processed

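Biotin-labelled colon RNA of each sample was read on an Affymetrix array. What the authors deposited is 1 table of log2 values, with 45101 probe sets and 23 arrays. RMA and GCRMA appear in the submitters' processing notes. Both correct background, normalize between arrays and summarise probes. The sources used here do not say which made these values.

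Groups came from the sample titles. Names came from a 2016 annotation of the platform, under which 34958 probe sets named 1 gene. Symbols were updated through GRCm38.p6 gene IDs, which matched for 34754. For each of 18194 genes the brightest probe set (by its mean of 23 arrays) was used. The 9 genes had 12 probe sets (2 each for Prf1, Fasl and Itgae), and all 9 were kept, with no filter on low values.

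The fit, by limma 3.58.1 (lmFit, eBayes) in R 4.3.3, used all arrays and a mean for every group, and was first tested on simulated data. Adjusted p-values are Benjamini-Hochberg over all genes. The genes and lists were chosen with earlier results of these data known. Named were all 9 genes, up to 4 genes per list with the smallest p in either TNBS comparison, and the 5 genes most like Gzma, Gzmb and Ccl5. Genes named outside that rule (Ccl25, Cdh1, Cma1, Eomes, Fcer1a, Gzmf, Gzmg, Gzmn, Ifng, Itgb1, Klrc1, Klre1, Klrk1, Ncr1, Rab27a, Tbx21, Tgfbr1) were chosen after their values were seen. Alternatives were other variance priors, sample sets, array weights, filters, probe set rules, scalings, floors, a replicate block, each array left out, and marker covariates chosen after seeing the data.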

Additional observations from a re-analysis of the deposited data

Results flagged for a closer look

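In 6 of 34 group values of the 9 genes, 1 array stood far from the others of its group by Dixon's test. Under this rule chance flags about 1 in 20 where values are normally spread. Values of Gzmk and Fasl near the floor are not so spread, so that rate is no guide for them. Gzmb read 4.64 in TNBS-treated knockout replicate 5, with the nearest other array at 5.42. Gzmk read 3.13 in TNBS-treated knockout replicate 3, with the nearest at 2.43, and 2.20 in untreated wild-type replicate 5, where the others were at 2.21. Nkg7 read 4.08 in untreated knockout replicate 5, with the nearest at 4.53. Klrd1 read 5.82 in TNBS-treated wild-type replicate 1, with the nearest at 5.30. Fasl read 2.62 in TNBS-treated knockout replicate 6, with the nearest at 2.35.

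The TNBS effect of 6 genes named above, none of them among the 9, differed between genotypes by limma. For Cpa3 it was 4.63 in the knockout and 6.00 in wild type (difference -1.36, adjusted p = 0.0225). For Mcpt4 it was 3.33 in the knockout and 4.96 in wild type (difference -1.63, adjusted p = 0.0177). For Serpinb6b it was 0.57 in the knockout and 1.29 in wild type (difference -0.72, adjusted p = 0.0375), and for Il2rb 0.09 in the knockout and 0.60 in wild type (difference -0.51, adjusted p = 0.0373). For Fcer1a it was 4.31 in the knockout and 6.34 in wild type (difference -2.03, adjusted p = 0.0225). For Rab27a it was -0.95 in the knockout and 0.67 in wild type (difference -1.62, adjusted p = 0.0257). Of these genes, Il2rb averaged only 2.30 with TNBS and 2.20 without in the knockout, near the floor, so the size of its difference is uncertain.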

How the results depend on the processing

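Of 1636 recomputed differences of the 9 genes, 1541 kept direction and side of the threshold, 34 lost and 6 gained a call, 2 turned with a call involved and 53 changed sign with no call on either side. The number of genes called was 7 for TNBS in wild type, 5 for TNBS in the knockout, 4 between genotypes with and 4 without TNBS, and 0 for the difference of TNBS effects. With values below log2 5 set to 5, which removes differences near the floor, it was 3 for TNBS in the knockout, 2 between untreated genotypes and 1 for the difference of effects, Gzmb at -1.46. With the T cell covariate it was 2 for TNBS in wild type, where Ccl5 turned to -0.16, and 2 in the knockout. With the skeletal muscle covariate it was 2 between untreated genotypes, where Itgae (-0.77) and Ccl5 (-1.23) kept similar differences with larger SEs. The cause of these changes was not tested. How many of all genes were called was not counted under any alternative, so a lost call is no result about these 9 genes in particular. With the T cell covariate the SE of Gzma for TNBS in wild type was 0.44, against 0.32 without it. Leaving out each array gave 6 to 7, 5 to 6, 4 to 5, 3 to 4 and 0 to 0 calls in the same order. With the replicate number as a block, which only names samples here (10 of 30 same-numbered pairs across groups had deviations correlated above 0.1), the counts were 6, 5, 4, 3 and 0, the calls lost being those of Ccl5 for TNBS in wild type (1.03, adjusted p = 0.0802) and between untreated genotypes (-1.39, adjusted p = 0.0537). The gain and loss of calls for Klrd1 and Ccl5 with single arrays is given beside their values, and Nkg7 passed between genotypes under TNBS without TNBS-treated knockout replicate 4 (-0.60, adjusted p = 0.049). With dim probe sets left out, 5, 4, 4, 4 and 0 genes were called, since some of the 9 were then not tested. Median centring moved the median gene by at most 0.05. Signal close to the floor limits Gzmk, Fasl and, in untreated knockout colon, Gzmb.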
